A study of Mus musculus with 6 samples.

Results

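The genes described here are 39 genes of transfer RNA (tRNA) charging, out of 43271 genes counted in cultured mouse brain endothelial cells. They were chosen by name, as members of these families: 19 cytosolic aminoacyl-tRNA synthetase genes, 16 mitochondrial ones (the symbols that end in 2), and 4 genes of accessory proteins, of which Aimp1, Aimp2 and Eef1e1 belong to the complex that holds several cytosolic synthetases together and Xpot exports tRNA from the nucleus. All 39 were found in the deposited count table, 17 of them under the older symbol without the final 1 (Wars for Wars1). The cells were primary brain microvascular endothelial cells of wild-type C57BL/6 mice, grown as a single cell type and used at passages 2 to 6, so other cells of the vessel wall were not part of the model. One group received the vehicle dimethyl sulfoxide (DMSO, 3 libraries) and the other dolutegravir (DTG, an inhibitor of HIV integrase) at 5000 ng/ml (3 libraries), each for 24 h. The title of the series names endoplasmic reticulum stress and the blood-brain barrier as its subject.

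Aminoacyl-tRNA synthetases join each amino acid to its tRNA, the step that sets the meaning of the genetic code. Animal cells keep separate enzymes for cytosolic and for mitochondrial protein synthesis, both encoded in the nucleus, except that Gars1 and Kars1 each make the enzyme of both compartments for glycine and lysine. Many cytosolic synthetase genes are known targets of the transcription factor ATF4, which is made when amino acid shortage or endoplasmic reticulum stress leads to phosphorylation of the initiation factor eIF2. ATF4 binds composite C/EBP-ATF elements in promoters together with C/EBP partners.

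The 6 libraries held between 41162353 and 56316335 counts. Of 10 endothelial markers all were measured, at a summed 11310 to 12335 CPM (counts scaled to a common library size) under vehicle and 7107 to 7406 CPM under DTG, and 7 of them were lower in DTG. Summed markers of astrocytes (5 genes) stayed at or below 0.138 CPM and those of pericytes and smooth muscle (7 genes) at or below 1.97 CPM. Of 6 microglia and leukocyte markers, Tmem119 made up nearly all of a sum that ranged from 23.6 to 29.5 CPM under vehicle and from 6.26 to 7.74 CPM under DTG, while P2ry12 had no count. Summed fibroblast markers (4 genes, mostly Pdgfra) were at 6.52 to 7.44 CPM under vehicle and 7.2 to 8.53 CPM under DTG, and oligodendrocyte markers (4 genes) at 1.57 to 1.87 and 1.23 to 1.41 CPM. Neuron markers (5 genes) summed to 0.158 to 0.322 CPM under vehicle and 2.21 to 6.04 CPM under DTG, nearly all Tubb3 in DTG. Rgs5, Kcnj8, Aqp4, Map2 and Mog, defining markers of pericytes, astrocytes, neurons and oligodendrocytes, had no count in any library. Pdgfrb, on the pericyte list, rose 3.62-fold from a mean of 0.196 to 0.718 CPM (adjusted p = 0.000594), and Col1a1, on the fibroblast list, 1.91-fold from 0.435 to 0.842 CPM (adjusted p = 0.0179). The part of these shifts in the results below was not tested. In cultures measured in bulk, fewer cells of a kind and less RNA per cell cannot be told apart.

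Cytosolic synthetase genes rose almost as a whole after DTG, whereas the mitochondrial set changed less, with more genes higher than lower in the main fit. Of 19 cytosolic genes 18 rose, 0 fell and only Vars1 did not pass, with a median change of 1.35 log2. All 4 accessory genes rose, with a median of 1.03 log2. Of 16 mitochondrial genes 8 rose, 2 fell and 6 did not pass, with a median of 0.28 log2. With scaling by library size alone, 5 mitochondrial genes rose and 5 fell. Among all 14101 genes tested 56.7% passed in either direction, 27.4% as higher and 29.3% as lower, and the median change was -0.01 log2. The test was edgeR's quasi-likelihood test with p-values adjusted over all genes tested and a threshold of 0.05. An increase by 1 log2 or more was seen in 12 cytosolic, 2 accessory and 0 mitochondrial genes, against 6.28% of all genes. Every DTG library lay above every DMSO library in 18 cytosolic, 4 accessory and 8 mitochondrial genes, and in 31.1% of all genes tested. The reverse held in 0, 0 and 4 genes of these classes, and in 33.1% of all genes tested. None of the 19 cytosolic genes was lower under DESeq2 either, nor at an unadjusted p below 0.05. Tars3, a cytosolic threonine enzyme gene outside these 19, fell by 0.36 log2 (edgeR, adjusted p = 0.00464).

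**Figure D1:**
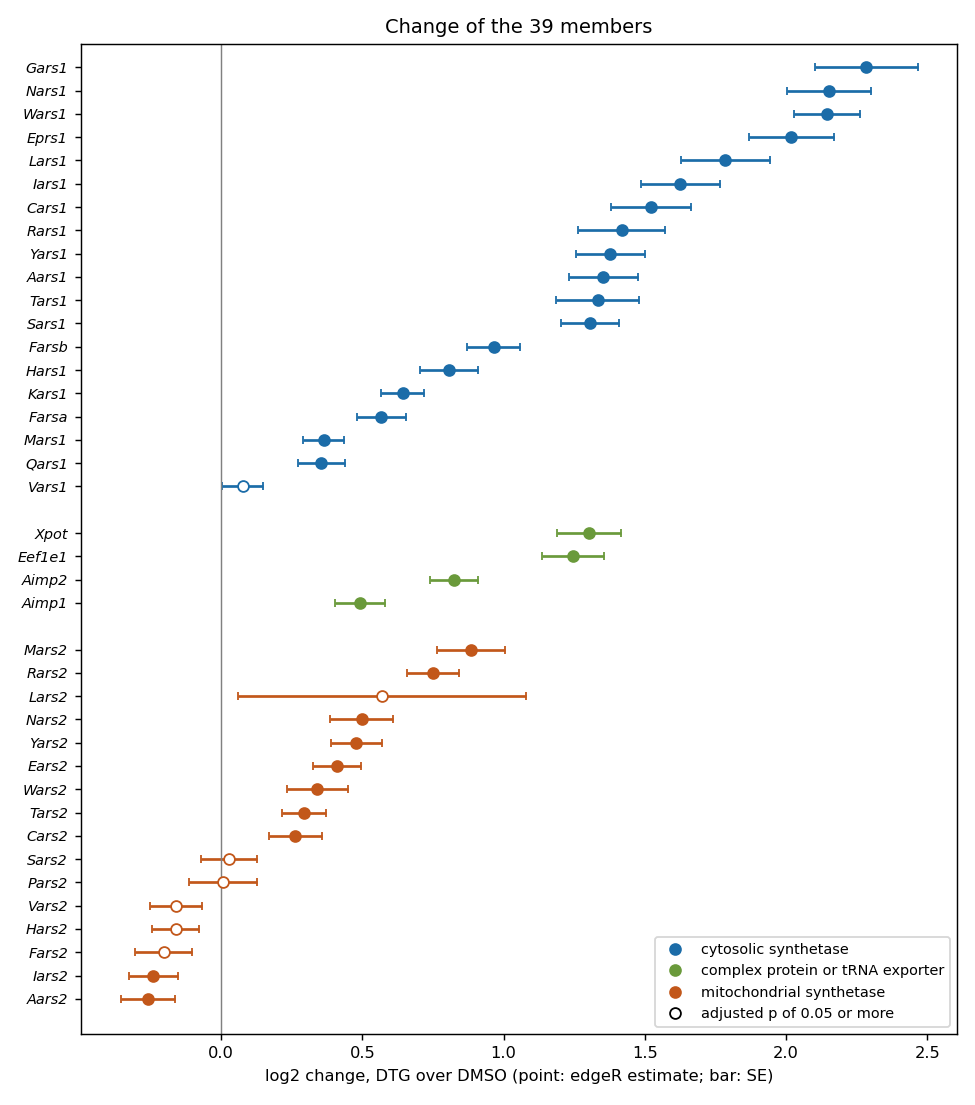
Log2 change from DMSO to DTG on the x axis for each of the 39 genes, with the edgeR estimate as a point and its standard error as a bar. Filled points passed at an adjusted p below 0.05. Cytosolic genes (blue) reach from Vars1 at 0.08 to Gars1 at 2.28, and mitochondrial genes (orange) from Aars2 at -0.26 to Mars2 at 0.89.

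The largest increases were in the genes for glycine, asparagine, tryptophan and the fused glutamate and proline enzyme. Gars1, the glycine enzyme of both compartments, was at 95.9, 99.2 and 95.9 CPM in the DMSO libraries and at 327, 558 and 533 CPM in the DTG libraries, a 4.87-fold rise (2.28 ± 0.18 log2, SE, adjusted p = 1.2e-05). Nars1, the asparagine enzyme, was at 73.4, 77.7 and 77.3 CPM under vehicle and 252, 385 and 378 CPM under DTG. Its change was 2.15 ± 0.15 log2 (adjusted p = 2.83e-06). In both genes every DTG library lay far above every DMSO library, and DTG replicate 1 was the lowest of the treated libraries.

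Wars1, which charges tryptophan, was at 105, 98.7 and 92.1 CPM under vehicle and 359, 487 and 459.9 CPM under DTG and had the smallest p of the 39 genes (2.14 ± 0.12 log2, adjusted p = 4.98e-07). Eprs1, a single protein with a glutamate and a proline enzyme, was at 188, 179 and 195 CPM under vehicle and 561, 863 and 853 CPM under DTG, a 4.05-fold rise that made it the most abundant of the 19 cytosolic genes in DTG by CPM. The groups did not overlap in either gene.

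**Figure D2:**
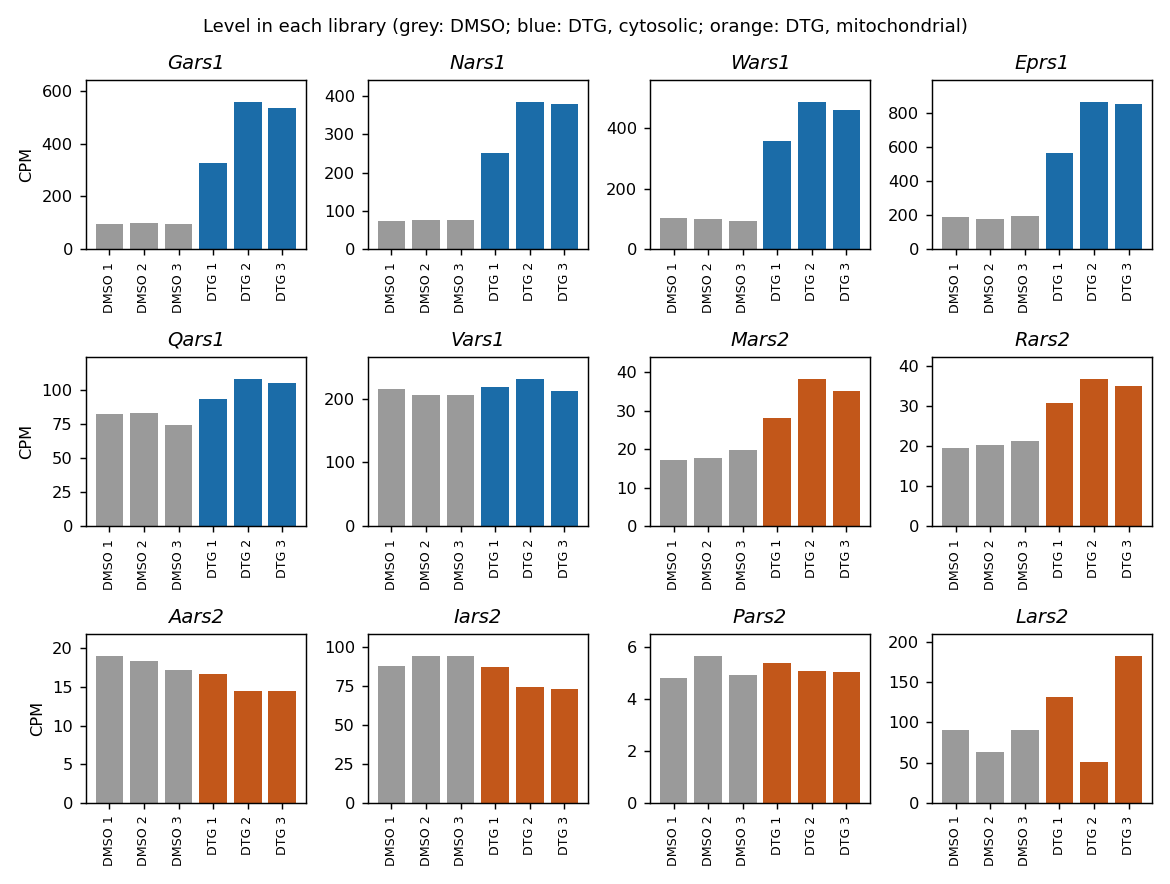
CPM (y axis, each panel starting at 0) in each of the 6 libraries (x axis) for 12 genes, with DMSO in grey, DTG in blue for cytosolic and in orange for mitochondrial genes. Gars1, Nars1, Wars1 and Eprs1 are several-fold higher in each DTG library, Vars1 and Pars2 overlap between groups, and Lars2 varies from 50.3 to 183 CPM within DTG.

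A second tier of 8 cytosolic genes rose between 2.47-fold and 3.44-fold. These were Lars1 (leucine, 3.44-fold), Iars1 (isoleucine, 3.09-fold), Cars1 (cysteine, 2.87-fold), Rars1 (arginine, 2.67-fold), Yars1 (tyrosine, 2.6-fold), Aars1 (alanine, 2.56-fold), Tars1 (threonine, 2.52-fold) and Sars1 (serine, 2.47-fold). Their adjusted p-values ranged from 4.79e-06 for Sars1 to 5.12e-05 for Rars1. Aars1 illustrates the tier, with 208, 191 and 174 CPM under vehicle and 399, 547 and 518 CPM under DTG. As in the genes above, every DTG library lay above every DMSO library, which held in 31.1% of all genes tested.

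Promoter sequences of the genes were examined as a description, without a test. RefSeq promoters (build GRCm38.p6, 250 bases before to 50 after the start of the gene) were at hand for 30 of the 39 genes, namely 12 cytosolic, 4 accessory and 14 mitochondrial ones. The core of the C/EBP-ATF element, searched as TGATGNAA on both strands, was present in 5 of the 12 cytosolic promoters (41.7%), those of Aars1, Gars1, Iars1, Tars1 and Yars1. It was present in 0 of 4 accessory and 0 of 14 mitochondrial promoters, and in 4.51% of the 27025 genes of the promoter table. For Gars1, Iars1, Tars1 and Yars1 the match is given on the strand of the gene in a 30-base window, with the 8 matching bases in capitals. All of those given but that of Yars1 lie on the opposite strand and so read as the reverse complement. Positions refer to GRCm38.p6, not to GRCm39, the build of the counts.
Gars1, chr6:55037960-55037989, plus strand: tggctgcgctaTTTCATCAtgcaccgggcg
Iars1, chr13:49682126-49682155, plus strand: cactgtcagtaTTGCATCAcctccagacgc
Tars1, chr15:11399655-11399684, minus strand: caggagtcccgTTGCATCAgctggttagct
Yars1, chr4:129189895-129189924, plus strand: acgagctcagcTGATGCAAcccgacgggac

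The matches of Gars1 and Tars1 began 30 and 15 bases before the start, and those of Yars1 and Iars1 at bases 4 and 8 of the transcript. The 5 cytosolic genes with the core changed by 1.33 to 2.28 log2 (median 1.38). The 7 without it, Eprs1, Farsa, Farsb, Kars1, Mars1, Qars1 and Sars1, changed by 0.35 to 2.02 log2 (median 0.64). The ranges overlap through Eprs1, at 2.02 log2 without these letters in the window. The part of the core in these changes was not tested. No promoter was at hand for Cars1, Hars1, Lars1, Nars1, Rars1, Vars1 and Wars1, so both medians leave them out. Their changes ran from 0.08 log2 (Vars1) to 2.15 log2 (Nars1), and whether they hold the core is not known here. The stricter TGATGCAA, which is contained in the search above, was found in 4 cytosolic promoters and in 1.03% of all genes. The other motifs searched were the endoplasmic reticulum stress element (ERSE, 0.137% of all genes) and the core TGACGTGG of the unfolded protein response element (0.714%), and neither was found in any of the 30 promoters. The E-box CACGTG, which reads the same on both strands, was found in Aars1, Farsb, Iars1, Tars1, Xpot and Ears2, and in 8.09% of all genes.

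For the genes at the ends of each class and for those of the widest gaps between partners, the 120 bases before the start are given next, with any core in capitals. Of the printed sequences only that of Gars1 holds the core, since the match of Iars1 lies after its start. Vars1, Pars2, Wars1 and Nars1 are named only.
Gars1 (largest cytosolic change), chr6:55037881-55038000, plus strand: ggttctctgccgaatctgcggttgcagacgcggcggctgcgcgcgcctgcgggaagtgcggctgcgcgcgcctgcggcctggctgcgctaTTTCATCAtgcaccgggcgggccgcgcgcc
Eprs1 (partner of Pars2), chr1:185362924-185363043, plus strand: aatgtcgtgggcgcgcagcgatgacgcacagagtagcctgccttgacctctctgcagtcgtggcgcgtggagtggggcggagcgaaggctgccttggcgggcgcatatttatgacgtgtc
Iars1 (partner of Iars2), chr13:49682010-49682129, plus strand: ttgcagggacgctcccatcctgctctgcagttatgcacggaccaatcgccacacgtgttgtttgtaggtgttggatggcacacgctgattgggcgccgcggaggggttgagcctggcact
Iars2, chr1:185329402-185329521, minus strand: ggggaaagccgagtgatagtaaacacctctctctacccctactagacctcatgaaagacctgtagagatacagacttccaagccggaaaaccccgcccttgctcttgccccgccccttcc
Xpot (largest accessory change), chr10:121626333-121626452, minus strand: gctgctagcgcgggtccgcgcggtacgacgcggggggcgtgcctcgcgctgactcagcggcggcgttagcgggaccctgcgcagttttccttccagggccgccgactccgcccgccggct
Aimp1 (smallest accessory change), chr3:132684391-132684510, minus strand: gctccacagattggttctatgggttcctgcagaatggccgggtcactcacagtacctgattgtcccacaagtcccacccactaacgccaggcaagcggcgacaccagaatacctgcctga
Mars2 (largest mitochondrial increase), chr1:55237057-55237176, plus strand: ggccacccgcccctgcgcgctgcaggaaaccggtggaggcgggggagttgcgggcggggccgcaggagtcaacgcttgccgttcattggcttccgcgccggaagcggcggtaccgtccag
Aars2 (largest mitochondrial decrease), chr17:45506712-45506831, plus strand: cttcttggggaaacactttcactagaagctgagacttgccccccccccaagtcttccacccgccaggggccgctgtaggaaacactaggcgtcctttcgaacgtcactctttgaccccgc

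The remaining cytosolic genes rose by less than 1 log2 or did not pass. Farsb and Farsa encode the subunits of the phenylalanine enzyme, yet rose unequally, 1.95-fold (0.97 ± 0.09 log2) and 1.48-fold (0.57 ± 0.09 log2). The difference between these subunits was not tested. Hars1, the histidine enzyme, rose 1.75-fold, and Kars1, the lysine enzyme of both compartments, 1.56-fold (adjusted p = 5.65e-05). Gars1 and Kars1, which supply both compartments, thus lay far apart among the 39 genes.

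Mars1 and Qars1, the methionine and glutamine enzymes, were the smallest increases that passed among the cytosolic genes. Mars1 was at 77.7, 83.9 and 77.5 CPM under vehicle and 98.6, 105 and 104 CPM under DTG (0.36 ± 0.07 log2, adjusted p = 0.00173). Exons of Mars1 and of Ddit3 overlap on opposite strands by 68 bases, and Ddit3 rose 30.1-fold. The library kit keeps strand, but the strand setting of the counting is not given in the sources used here, so the reads of these genes in the overlap cannot be told apart. Qars1 was at 82.5, 82.9 and 74 CPM under vehicle and 93.2, 108 and 105 CPM under DTG (0.35 ± 0.08 log2, adjusted p = 0.00473). With scaling by library size alone Qars1 did not pass (adjusted p = 0.0789).

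Vars1, the valine enzyme, was the only gene of the 19 cytosolic ones that was not induced. It was at 215, 206 and 206 CPM under vehicle and 218, 231 and 211 CPM under DTG, and these ranges overlap. Its difference was 0.08 ± 0.07 log2 (adjusted p = 0.39) and took the opposite sign with library-size or upper-quartile scaling (-0.10 and -0.018 log2, adjusted p = 0.275 and 0.846). In DMSO it was the most abundant cytosolic synthetase transcript by CPM, at 209 ± 5.67 (SD, n = 3).

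Genes of enzymes inside and outside the multisynthetase complex covered overlapping ranges of change. The 7 genes of complex-bound enzymes (Eprs1, Iars1, Kars1, Lars1, Mars1, Qars1 and Rars1) all rose, with a median of 1.42 log2 and a range from 0.35 to 2.02. Of the 12 genes outside it 11 rose, with a median of 1.34 log2 and a range from 0.08 to 2.28. The share called higher among all genes tested was 27.4%. Within the complex, Qars1, Mars1 and Kars1 rose by 1.28-fold to 1.56-fold, while Rars1, Iars1, Lars1 and Eprs1 rose by 2.67-fold to 4.05-fold.

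Among the accessory genes, Xpot rose most. This exporter of mature tRNA was at 127, 136 and 146 CPM under vehicle and 278, 374 and 357 CPM under DTG (1.30 ± 0.11 log2, adjusted p = 8.52e-06). Eef1e1, another scaffold protein of the complex, rose from 6.82 ± 0.305 to 16.2 ± 1.74 CPM (SD, n = 3 each, 1.24 log2). The scaffold genes Aimp2 and Aimp1 rose 1.77-fold and 1.41-fold, Aimp1 with an adjusted p of 0.000943. Every DTG library was above every DMSO library in each of the 4 genes, as in 31.1% of all genes tested.

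The mitochondrial genes that rose were Mars2, Rars2, Nars2, Yars2, Ears2, Wars2, Tars2 and Cars2. Mars2, the mitochondrial methionine enzyme, was at 17.3, 17.8 and 19.9 CPM under vehicle and 28, 38.4 and 35.3 CPM under DTG (0.89 ± 0.12 log2, adjusted p = 0.00015). Rars2, the arginine enzyme, was at 19.6, 20.2 and 21.3 CPM under vehicle and 30.8, 36.9 and 35.1 CPM under DTG (0.75 ± 0.09 log2, adjusted p = 7.66e-05). Both were above the DMSO range in each DTG library, as were 31.1% of all genes tested. The other 6 rose between 1.2-fold (Cars2) and 1.41-fold (Nars2). Of these, Cars2 (0.26 ± 0.09 log2, adjusted p = 0.0339) lost its call in 8 of 14 alternatives and Wars2 (0.34 ± 0.11 log2, adjusted p = 0.0212) in 5 of 14. Adjusted p-values over the alternatives ranged from 0.0128 to 0.433 for Cars2 and from 0.0051 to 0.198 for Wars2.

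Aars2 and Iars2, the mitochondrial alanine and isoleucine enzymes, were the 2 that fell. Aars2 was at 19.1, 18.4 and 17.2 CPM under vehicle and 16.7, 14.5 and 14.5 CPM under DTG (-0.26 ± 0.10 log2, adjusted p = 0.0399). Iars2 was at 87.9, 94 and 94.3 CPM under vehicle and 86.7, 74.2 and 72.9 CPM under DTG (-0.24 ± 0.09 log2, adjusted p = 0.0345). Every DTG library lay below every DMSO library in both genes, as in 33.1% of all genes tested. However, DTG replicate 1 lay close to the DMSO libraries. Neither call was firm: without DTG replicate 2 or 3, the adjusted p was 0.185 and 0.205 for Aars2 and 0.187 and 0.221 for Iars2. The count of mitochondrial genes that fell was 0 without DTG replicate 2 or 3 or DMSO replicate 2, 1 without DMSO replicate 1 or 3, and 5 with library-size or upper-quartile scaling. Exons of Iars2 also overlap 2034 bases of Rab3gap2 on the opposite strand, which rose by 0.22 log2.

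The 6 mitochondrial genes that did not pass were Pars2, Sars2, Vars2, Hars2, Fars2 and Lars2. Pars2, the proline enzyme and the lowest of the 39 genes by CPM, was at 4.81, 5.66 and 4.93 CPM under vehicle and 5.37, 5.06 and 5.04 CPM under DTG (0.01 ± 0.12 log2, adjusted p = 0.976). Sars2, the serine enzyme, was at 9.12 ± 0.564 CPM under vehicle and 9.3 ± 0.408 CPM under DTG (SD, n = 3 each), and its sign, like that of Pars2, changed between scalings (-0.14 and -0.16 log2 with library size alone). Vars2, Hars2 and Fars2 differed by -0.16, -0.16 and -0.20 log2, with adjusted p-values of 0.163, 0.127 and 0.107, and passed as lower with library-size or upper-quartile scaling. In Hars2 and Fars2 every DTG library was below every DMSO library, as in 33.1% of all genes tested.

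Lars2, the mitochondrial leucine enzyme, stood apart by its spread. It was at 91, 63.7 and 90.5 CPM under vehicle and at 131, 50.3 and 183 CPM under DTG, so that the treated libraries held both its lowest and its highest value (0.57 ± 0.51 log2, adjusted p = 0.39). Without DTG replicate 2 it passed as higher (0.97 log2, adjusted p = 0.00509), and over all alternatives the adjusted p ranged from 0.00509 to 0.805. Counts of Rpph1, the RNA of ribonuclease P, were 9, 1 and 6 under vehicle and 41, 1 and 34 under DTG. Rmrp, another small RNA that is not polyadenylated, had 13, 2 and 7 counts in DMSO and 46, 2 and 54 in DTG. Replicate 2 was the lowest library of each group in all 3 genes, but DTG replicates 1 and 3 ranked differently in Rpph1. Small noncoding RNA classes together varied less, at 7.74, 5.46 and 6.47 CPM under vehicle and 10.7, 9.25 and 12.1 CPM under DTG. The sum of mt-Rnr1 and mt-Rnr2 was at 261, 318 and 513 CPM under vehicle and 212, 138 and 165 CPM under DTG. The part of RNA that is not polyadenylated in the counts of Lars2 was not tested. Rpph1 and Rmrp were looked up after the values of Lars2 were seen.

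Summed over each class, the contrast between compartments was as follows. The 19 cytosolic genes together held 1864 ± 49.2 CPM under vehicle and 4956 ± 884 CPM under DTG (SD, n = 3 each), a ratio of 2.66. The 15 mitochondrial genes other than Lars2 held 337 ± 4.84 CPM under vehicle and 378 ± 2.17 CPM under DTG, a ratio of 1.12. By library the mitochondrial sum was 332, 342 and 338 CPM under vehicle and 377, 381 and 377 CPM under DTG. The cytosolic sum was at 1903, 1881 and 1809 CPM under vehicle and at 3940, 5549 and 5380 CPM under DTG. With Lars2, which was left out after its spread was seen, the 16 mitochondrial genes held 423, 405 and 429 CPM under vehicle and 508, 431 and 559.9 CPM under DTG.

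**Figure D3:**
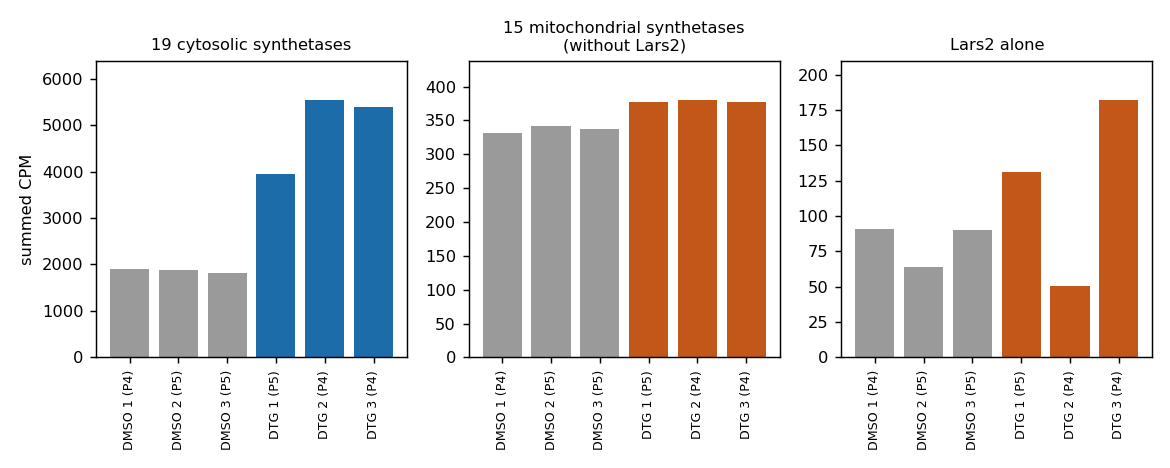
Summed CPM (y axis, each panel starting at 0) in each library (x axis, with the P tag of the library name) for 19 cytosolic genes, 15 mitochondrial genes without Lars2, and Lars2 alone. DMSO is grey and DTG coloured. The cytosolic sum rises from 1809 to 1903 CPM under vehicle to 3940 to 5549 CPM under DTG, while the mitochondrial sum without Lars2 stays between 332 and 381 CPM.

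Cytosolic and mitochondrial partners for the same amino acid were compared directly, as the ratio of their counts within each library, which no scaling between libraries can change. There were 17 such pairs, of which Eprs1 and Fars2 each enter 2. The ratio was higher in every DTG library than in every DMSO library in 16 pairs, and lower in every DTG library in 1. The two-sided exact permutation test of each pair gave p = 0.1, also after adjustment over the 17 pairs, which is the smallest that 3 against 3 libraries allow, so no pair can pass 0.05. The Iars1 to Iars2 ratio was 0.907, 0.803 and 0.835 in DMSO and 2.1, 3.68 and 3.66 in DTG, so the partner with more counts changed. This holds for counts only. Per kilobase of transcript, Iars1 was already at 17.6 CPM in DMSO, against 16.8 for Iars2. The Wars1 to Wars2 ratio was 7.58, 7.47 and 5.9 in DMSO and 22.3, 26.7 and 23.5 in DTG. The Eprs1 to Pars2 ratio grew most, by 1.98 log2, from a mean of 36.8 ± 4.42 to 148 ± 37.8 (SD, n = 3 each).

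Methionine was the exception. The Mars1 to Mars2 ratio was 4.48, 4.72 and 3.89 in DMSO and 3.52, 2.75 and 2.94 in DTG, a fall of the ratio by 0.51 log2, since Mars2 rose more than Mars1. The valine pair moved least among the others, by 0.23 log2, with Vars1 to Vars2 ratios of 8.13, 8.22 and 8.98 in DMSO and 9.19, 10.5 and 10.1 in DTG. The arginine pair moved by 0.64 log2, as both partners rose. For Lars1 and Lars2 the ratio in DTG was 1.14, 4.75 and 1.23, which carries the spread of Lars2.

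**Figure D4:**
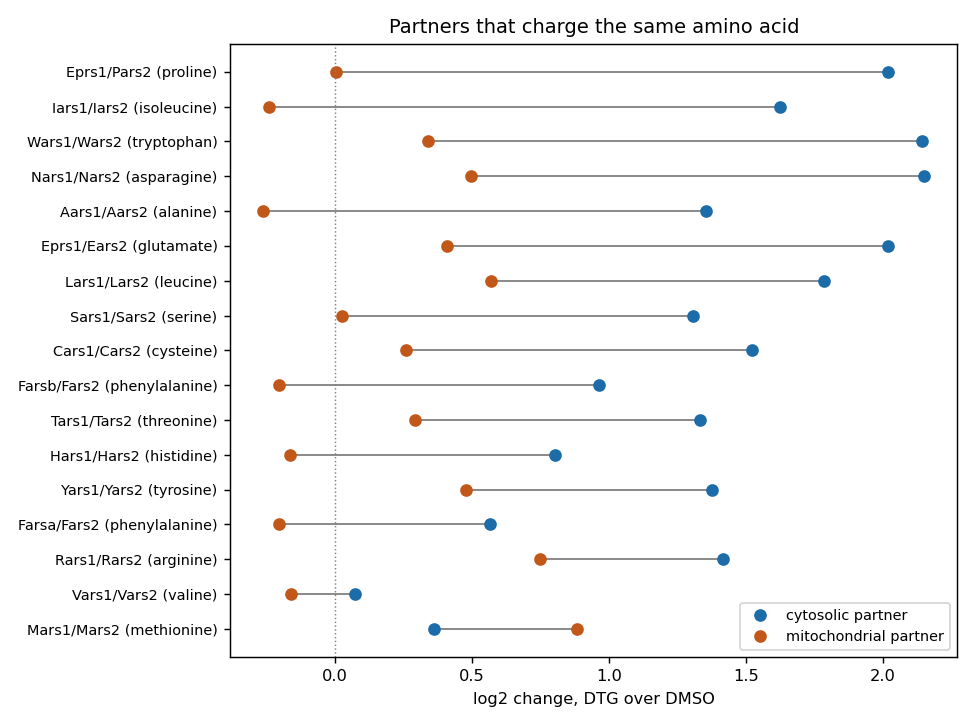
Log2 change from DMSO to DTG (x axis) of the cytosolic (blue) and the mitochondrial (orange) partner of each of 17 pairs, ordered by the change of their ratio. The cytosolic point lies to the right in 16 pairs, and only in the methionine pair, with Mars1 at 0.36 and Mars2 at 0.89, is the order the other way.

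Levels between genes were compared per length, as CPM per kilobase of the longest coding transcript in GENCODE. In DMSO the median was 28.5 CPM per kb for cytosolic and 5.53 CPM per kb for mitochondrial genes, and in DTG 54.4 and 5.59 CPM per kb. Cytosolic levels ranged in DMSO from 13.9 CPM per kb for Yars1 to 60.2 for Rars1. In DTG they ranged from 32 for Farsa to 199 ± 53.1 for Gars1 (SD, n = 3). Lars2 was the highest mitochondrial gene in both groups, at 21 and 31.1 CPM per kb, and Mars2 was the lowest in DMSO, at 1.62, where a long annotated transcript of 11294 bases lowers the value.

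**Figure D5:**
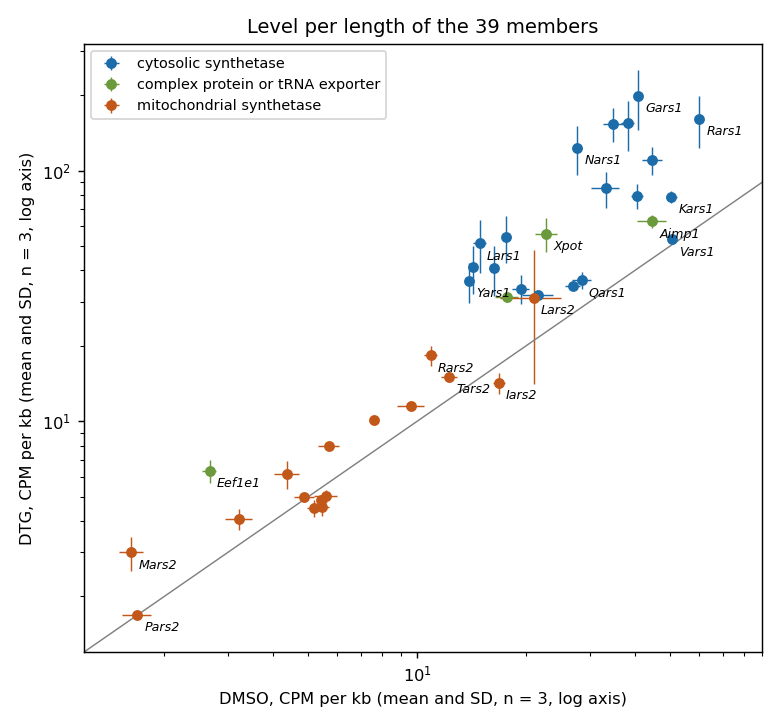
Mean CPM per kilobase in DMSO (x axis) against DTG (y axis), both on log axes, with SD bars over 3 libraries, for the 39 genes. The line marks equal levels. Most mitochondrial genes (orange) lie near it, while most cytosolic genes (blue) lie above it, with Gars1 at 199 and Vars1 on the line at 53.2 CPM per kb in DTG.

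The size of the response differed between treated libraries. DTG replicate 1 was the lowest of the 3 DTG libraries in 17 of the 18 cytosolic genes that rose, in 3 of the 4 accessory genes and in 6 of the 8 mitochondrial genes that rose. It is the only DTG library whose name carries the tag P5, whereas DTG replicates 2 and 3 carry P4. DMSO replicate 1 carries P4, and DMSO replicates 2 and 3 carry P5. Changes within P4 thus rest on a single DMSO library, and those within P5 on a single DTG library. The labels do not define the tag. The median cytosolic change was 1.48 log2 among P4 libraries and 1.06 among P5 libraries, and the median mitochondrial change was 0.13 and 0.20 log2. The difference of the change between tags passed in 0 of 39 genes by edgeR's quasi-likelihood test of the interaction (lowest adjusted p = 0.329), as in 0 of all genes tested, while the unadjusted p was below 0.05 in 12 of the 39 and in 1351 of the 14101 genes tested. All 19 cytosolic genes had the same sign within each tag, as had 15 of the 16 mitochondrial genes and 12032 of the 14101 genes tested. Without DTG replicate 1, 18 cytosolic genes still passed, with a median of 1.54 log2.

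Other genes of tRNA charging and proofreading followed no single direction. The proofreading gene Prorsd1 rose 1.55-fold and Sepsecs, of selenocysteine synthesis, 1.31-fold. Dtd1, which removes D-amino acids from tRNA, fell by 0.34 log2. Tars3, a second cytosolic threonine enzyme gene, fell by 0.36 log2, opposite to the rise of Tars1. Mitochondria make glutamine tRNA by amidation rather than with their own glutamine enzyme. Of 4 genes for this step and for formylation of methionine tRNA, Gatc rose 1.58-fold, and Gatb, Qrsl1 and Mtfmt did not pass.

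Genes around the mitochondrial synthetases had smaller median changes than the cytosolic synthetases (1.35 log2). Of all genes tested, 27.4% were called higher and 29.3% lower, with a median of -0.01 log2. Of 8 mitochondrial tRNA maturation genes 3 rose and 1 fell (median 0.22 log2), led by Trnt1, which adds the CCA end to tRNAs of both compartments, at 1.74-fold, with Elac2 at 1.43-fold and Trmt10c at 1.34-fold. Hsd17b10, a subunit of mitochondrial ribonuclease P, fell by 0.40 log2. Of 8 mitochondrial translation factor genes 3 rose and 0 fell (median 0.14 log2), with Mtrf1l at 1.3-fold, Gfm1 at 1.17-fold and Tufm at 0.20 log2. In that list 0 genes were lower at an unadjusted p below 0.05 as well. On the list drawn up for cytosolic tRNA maturation and export, 9 of 11 genes rose (median 0.47 log2). Nsun2, a tRNA methyltransferase, rose 1.75-fold and Pus1, a pseudouridine synthase, 1.56-fold. As Trnt1 shows, these lists do not separate the compartments strictly.

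Of 8 regulators that sense uncharged tRNA or act with ATF4, 6 rose and 1 fell, against 27.4% and 29.3% of all genes tested. Atf4 was at 123, 137 and 115 CPM under vehicle and 501, 781 and 762 CPM under DTG, again lowest in DTG replicate 1 among treated libraries. Ddit3 rose 30.1-fold and Trib3, an ATF4 target that feeds back on it, 9.78-fold, and the C/EBP partners Cebpb and Cebpg rose 1.68-fold and 1.51-fold. Eif2ak3, the kinase of the endoplasmic reticulum stress branch, rose 1.95-fold. Eif2ak4, the kinase that binds uncharged tRNA, did not pass (0.05 ± 0.07 log2, adjusted p = 0.565), and Gcn1, its activator, fell by 0.25 log2 (adjusted p = 0.0203).

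Exons of 15 of the 39 genes overlap those of another gene on the opposite strand in GENCODE, among them Hars1 and Hars2, which face each other and share 195 bases. Aars1 also overlaps 1326 bases of Exosc6 on its own strand, and Exosc6 had 0 counts in all 6 libraries. How shared reads were assigned is not given in the sources used here. Nothing in the labels ties the libraries of a group to separate cultures, so each p-value rests on a spread among libraries that may be technical.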

How the data were processed

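RNA was sequenced from 6 libraries (3 DMSO, 3 DTG) made from polyadenylated RNA with a strand-keeping kit, per the labels' protocols. The values are raw counts per Ensembl gene in a table the authors deposited; the build was GRCm39 per the submitters' processing notes, and no source used here names the aligner or counter. One DTG column is spelled DIG in the file and was matched by the rest of its name. Symbols came from a name table that matched 38606 of 43271 identifiers (89.2%). Genes low in all libraries were removed by edgeR 4.0.16 (filterByExpr), all 39 members passed, and the groups were compared with TMM scaling and the robust quasi-likelihood test (R 4.3.3), adjusted over 14101 genes by Benjamini-Hochberg. The scripts were tested on simulated data. CPM uses TMM-scaled library sizes. The libraries held 41162353 to 56316335 counts, and the lowest member, Pars2, had 214 to 336 counts in each.

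The alternatives were other scalings, DESeq2 1.42.0, other count filters, a replicate block, the P tag of the library names as a covariate, and omission of each library in turn. Replicate numbers of the sample titles showed no pairing of the libraries, though too few libraries are at hand to exclude it. All members and lists were chosen with earlier results of these data known. All 39 members are named. Of the other lists the text names the 2 genes with the smallest p and those behind counts of 5 or fewer, less some items that are not reported here; Atf4, Cebpb, Cebpg, Eif2ak3, Rpph1 and Rmrp were added after their values were seen. Motifs were searched in RefSeq promoters of GRCm38.p6, and transcript lengths and exon overlaps came from GENCODE on GRCm38.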

Additional observations from a re-analysis of the deposited data

How the results depend on the processing

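Under all 14 alternatives 17 of the 18 cytosolic genes that rose, all 4 accessory genes and 5 of the 8 mitochondrial genes that rose kept their call, with Qars1, Cars2, Tars2 and Wars2 the exceptions. Scaling by library size alone moved the median of all genes by -0.17 log2 and the share of calls that were higher from 48.3% to 30.7% (38.2% with upper-quartile factors). Mitochondrial genes that rose then numbered 5 (6 with upper-quartile factors), those that fell 5 with either scaling, and the mitochondrial median was 0.11 and 0.18 log2. Those that fell numbered 1 with DESeq2, without a count filter or with the P tag as a term, and 0 to 2 when a library was left out. Signs turned with these 2 scalings for Vars1 (-0.10 and -0.018 log2), Pars2 (-0.16 and -0.088) and Sars2 (-0.14 and -0.066), and for Sars2 also with the P tag as a term (-0.010). With a library left out, Pars2 ranged from -0.042 to 0.082 log2 and Sars2 from -0.016 to 0.096. The cause was not tested. The C/EBP-ATF core was in 3 cytosolic promoters when only bases before the start were searched, since fewer bases are then read. Without Lars2, a choice made after seeing the data, the mitochondrial median was 0.26 log2.

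With a replicate block, 7271 genes passed against 7990, and 18 cytosolic, 4 accessory and 7 mitochondrial genes rose while 0 mitochondrial genes fell. Deviations of same-numbered libraries from their group means correlated at -0.27, 0.05 and -0.04, which shows no pairing by number but cannot exclude it. Between groups, libraries with the same P tag correlated at 0.15 and 0.19 (P4) and at 0.08 and 0.18 (P5). Those with unlike tags ranged from -0.27 to 0.05. Shared cultures or batches were not tested.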
